A study of Mus musculus with 11 samples.

Results

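The 9 genes described here, Muc6, Tff2, Gkn3, Cd44, Clu, Sox9, Cftr, Aqp5 and Wfdc2, are markers of gastric mucous neck cells and of the metaplasia that follows loss of parietal cells. They were chosen by name out of 22180 genes measured with a single gene symbol, and each was read by 1 probe set of an Affymetrix array. RNA came from stomachs of adult C57Bl/6 mice in 4 groups: rapamycin plus tamoxifen (2 arrays), tamoxifen (2 arrays), rapamycin (3 arrays) and vehicle, which was sunflower oil (2 arrays). Tamoxifen, a ligand of oestrogen receptors that injures parietal cells at high dose, was injected for 3 days, 5 mg for each 20 g of body weight. Rapamycin, which blocks mTORC1 signalling, was injected for 10 days, 0.6 mg for each 20 g, and all agents went into the peritoneum daily. Isolated parietal cells, and the cells left after their removal, had 1 array each. The labels call whole-stomach arrays biological replicates without saying whether each is 1 mouse, so the tests measure the spread between arrays.

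Mucous neck cells sit in the neck of the gastric gland and secrete a gland mucus built on Muc6, together with the trefoil peptide Tff2. When parietal cells are lost, zymogenic chief cells can take on neck-cell features while re-entering the cell cycle, a state called spasmolytic polypeptide-expressing metaplasia (SPEM) after the older name of Tff2. Of the genes here, Muc6, Tff2 and Gkn3 are secretory products of mucous cells, and Cd44, Clu, Sox9, Cftr, Aqp5 and Wfdc2 are genes used to mark metaplastic or gland-base cells.

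The promoters of Muc6 and Gkn3 are shown because these mucous genes had the largest differences between the separated cell fractions. RefSeq promoter sequences, assembly GRCm38.p6, matched 6 of the 9 genes, and the 250 bases before the annotated start are printed 5′ to 3′ on the gene's strand. Capitals mark matches on either strand to 3 short motifs. These are TATAA, known from core promoters, the CCAAT box, and GATAA, bound by GATA factors.
Muc6 promoter, chr7:141655394-141655643, minus strand: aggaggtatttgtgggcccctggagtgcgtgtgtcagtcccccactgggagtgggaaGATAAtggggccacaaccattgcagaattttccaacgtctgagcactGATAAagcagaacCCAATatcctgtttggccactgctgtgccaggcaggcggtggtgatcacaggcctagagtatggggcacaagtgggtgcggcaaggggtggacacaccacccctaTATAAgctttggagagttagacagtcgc
Gkn3 promoter, chr6:87388936-87389185, minus strand: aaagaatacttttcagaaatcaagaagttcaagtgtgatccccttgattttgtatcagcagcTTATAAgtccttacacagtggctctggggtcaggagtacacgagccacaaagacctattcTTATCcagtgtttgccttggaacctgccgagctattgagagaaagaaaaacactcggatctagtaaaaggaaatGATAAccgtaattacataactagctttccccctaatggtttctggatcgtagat
Muc6 had the TATA core at 28 to 24 bases before its start, CCAAT from 133 and GATAA from 193 and 146 bases before it. Gkn3 had TATAA on both strands, overlapping, at 188 to 183 bases before the start, and GATAA from 128 (opposite strand) and 54 bases before it. Among 32817 RefSeq promoters cut to the same length, TATAA was in 22.8%, CCAAT in 33.8% and GATAA in 22.6%. The SOX core AACAAT (in 9.42% of promoters), the AP-1 motif TGANTCA (6.75%), the E-box CAGCTG (13%) and the full oestrogen response element (0.064%) had no match in either window.

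Some arrays stood apart from the rest. Tamoxifen 2 and vehicle 2 held identical values, to every deposited digit, at 7093 of 41345 probe sets (17.2%), while no other pair of whole-stomach arrays shared more than 58. The parietal-cell and remaining-cell arrays shared 1918 (4.64%), the cause of which was not tested. None of the 9 genes was among those shared values. Over all genes, tamoxifen 2 and vehicle 2 correlated at r = 0.988, the 2 vehicle arrays at 0.981 and the 2 tamoxifen arrays at 0.971. Where tamoxifen 2 and vehicle 2 touch a call among the 9 genes, results are also given without both. Calls of genes in other lists were not recomputed without them. The mean log2 level of 13 squamous forestomach genes was 9.16 and 9.53 with both agents, 9.96 and 4.98 with tamoxifen, 9.89, 8.68 and 5.47 with rapamycin, and 5.18 and 4.80 with vehicle. Squamous genes were high on 5 arrays, and both vehicle arrays were low. Markers of the injured cells moved with tamoxifen: the mean of 13 parietal genes lay between 9.07 and 9.68 in tamoxifen arrays and between 10.38 and 10.50 in vehicle arrays. In whole tissue, fewer cells of a type and less RNA per cell cannot be told apart.

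Muc6, the mucin that forms the body of gland mucus, was the only one of the 9 genes that passed the test for tamoxifen against vehicle. Its log2 level was 10.22 and 10.94 in tamoxifen arrays, against 12.18 and 12.82 in vehicle arrays. The groups did not overlap, and in this comparison 27.3% of all genes did not. Muc6 fell by 1.92 ± 0.34 log2 units (limma standard error, adjusted p = 0.0313, ratio 0.264), and 1.72% of all 22180 genes passed (0.933% higher and 0.784% lower). Set against both vehicle arrays, tamoxifen 1, which was high in squamous genes, gave -2.28, and tamoxifen 2, which was low in them, gave -1.56. Set against the vehicle array of the same number, tamoxifen 1 gave -1.96 and tamoxifen 2 gave -1.88. The part of squamous tissue in the Muc6 level was not tested. The call was not stable. With the squamous mean as a covariate the change was -1.71 (adjusted p = 0.0778), and without tamoxifen 2 and vehicle 2 it was -1.96. The call was also lost with the replicate number as a block (adjusted p = 0.083) and with only the groups compared (adjusted p = 0.289). With 1 array left out in turn it passed in 3 of 9 cases, with changes between -2.28 and -1.56.

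Under rapamycin the tamoxifen difference in Muc6 was smaller and did not pass. Muc6 stood at 11.81 and 10.93 in the combined arrays, against 11.95, 11.59 and 11.81 in rapamycin arrays. These groups overlapped, with a log2 change of -0.41 ± 0.31 (adjusted p = 0.672). The interaction, which tests whether tamoxifen acted differently with rapamycin, was 1.51 ± 0.46 for Muc6 (95% interval 0.46 to 2.56, unadjusted p = 0.0102). It did not pass over all genes (adjusted p = 1). By limma 0 genes did. An unadjusted p under 0.05 was found for 627 of all 22180 genes, below the share of 0.05 awaited with no effect. Muc6 was highest in vehicle, followed by rapamycin, then the combination and then tamoxifen, and only the vehicle and rapamycin arrays were separate from each other among neighbours in that order.

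Tff2, the trefoil peptide that stabilises mucus, kept a high level in every group. It measured 12.98 and 12.90 in the combined arrays, 11.80 and 12.56 in tamoxifen arrays, 13.05, 12.79 and 13.02 in rapamycin arrays, and 12.47 and 12.79 in vehicle arrays. Tamoxifen 1 was the lowest of the 9 arrays. The log2 change was -0.45 ± 0.24 for tamoxifen against vehicle (adjusted p = 0.611). For the combination against rapamycin it was -0.01 ± 0.22, with a 95% interval of -0.51 to 0.49.

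Gkn3, a gastrokine gene of mucous cells in mice, had groups that overlapped with their neighbours in level throughout. Its level was 10.86 and 10.03 in the combined arrays, 9.06 and 9.27 in tamoxifen arrays, 10.53, 8.84 and 10.03 in rapamycin arrays, and 8.73 and 9.94 in vehicle arrays. Neither tamoxifen against vehicle (-0.17 ± 0.56, adjusted p = 0.988) nor the combination against rapamycin (0.64 ± 0.51, adjusted p = 0.688) passed. Gastrin gene Gast, a product of the antrum, was high on some of the same arrays: 9.73 and 9.08 in the combination, 6.48 and 6.00 with tamoxifen, 8.30, 6.28 and 6.71 with rapamycin, and 6.46 and 6.42 with vehicle. The highest array mean of 3 antral genes was 7.71 in the combination, 6.08 with tamoxifen, 6.76 with rapamycin and 6.07 with vehicle. The part of antral tissue in the Gkn3 level was not tested.

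**Figure D1:**
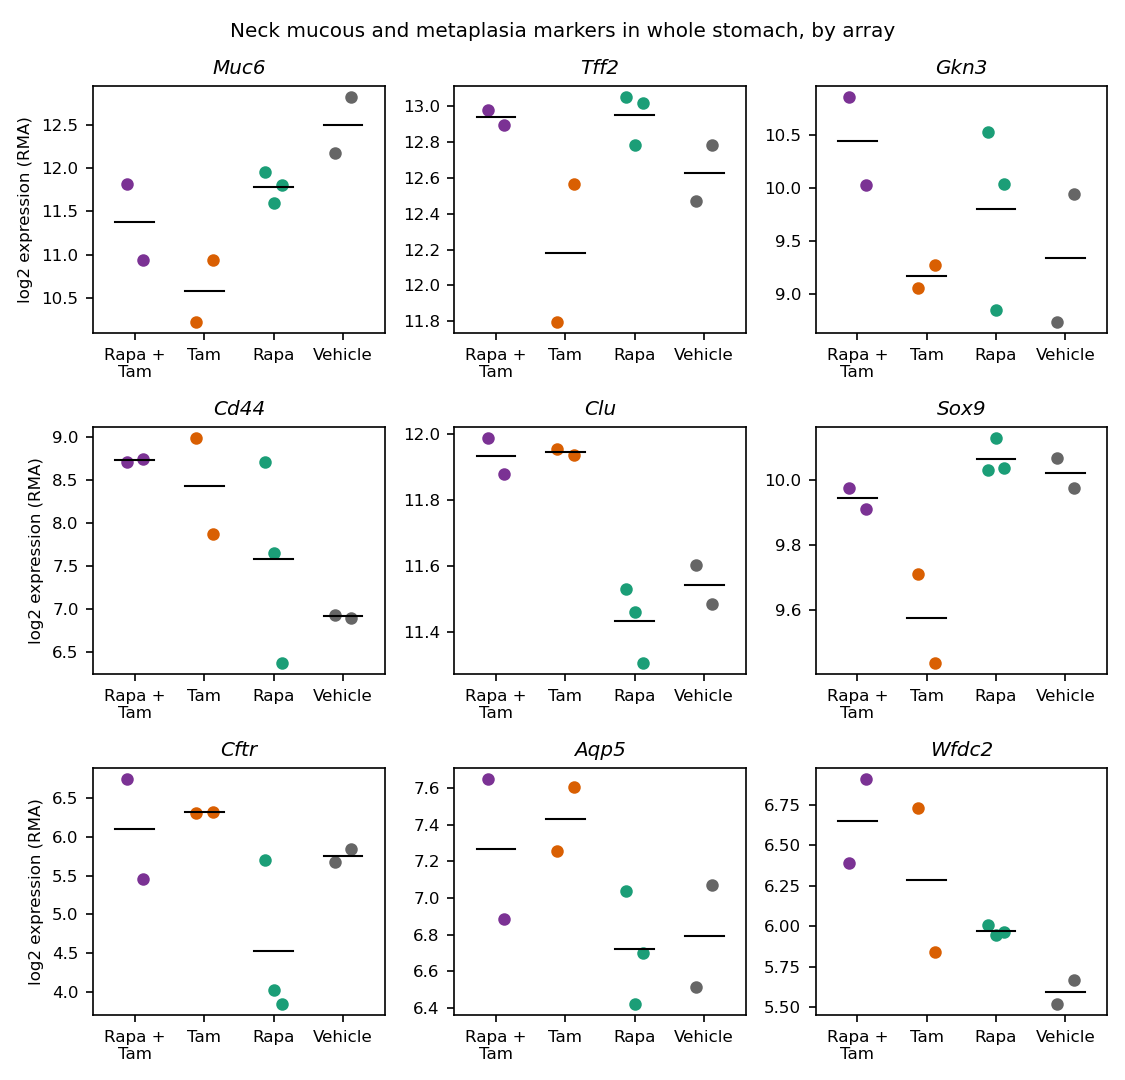
Log2 expression (RMA) of each of the 9 genes on every whole-stomach array, in the groups rapamycin plus tamoxifen, tamoxifen, rapamycin and vehicle. Points are arrays and bars are group means; each panel has its own axis range. Muc6 was at 10.22 and 10.94 with tamoxifen and at 12.18 and 12.82 with vehicle. Clu was above every rapamycin and vehicle array on all 4 arrays with tamoxifen, a separation not counted over all genes.

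Clu, which encodes the secreted chaperone clusterin, was higher on every array with tamoxifen than on every array without it. It measured 11.99 and 11.88 in the combined arrays, against 11.53, 11.46 and 11.31 in rapamycin arrays. With tamoxifen alone it measured 11.95 and 11.94, against 11.60 and 11.48 in vehicle arrays. Over all genes, 27.3% did not overlap for tamoxifen against vehicle and 39.1% for the combination against rapamycin. Separation of all arrays with tamoxifen from all without it was not counted over all genes. Neither pair passed by itself: 0.50 ± 0.13 for the combination against rapamycin (adjusted p = 0.0884), where 2.45% of all genes passed (1.13% higher and 1.32% lower), and 0.40 ± 0.14 for tamoxifen against vehicle (adjusted p = 0.269). Averaged over rapamycin, Clu rose with tamoxifen by 0.45 ± 0.09 (adjusted p = 0.0236). The averaged call was lost with the squamous covariate (0.40, adjusted p = 0.103), under quantile normalization (0.41, adjusted p = 0.0552) and without tamoxifen 2 and vehicle 2 (0.43, adjusted p = 0.0610), and with 1 array left out it passed in 2 of 9 cases.

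In that averaged comparison 2 of the 9 genes passed, against 5.85% of all genes (3.24% higher and 2.61% lower), Clu higher and the other lower. The other was Muc6, at -1.17 ± 0.23 (adjusted p = 0.0203), which did not pass with the squamous covariate (adjusted p = 0.0662). It passed in 4 of 9 cases with 1 array left out, and without tamoxifen 2 and vehicle 2 (-1.18, adjusted p = 0.0347). The median change of the 9 genes was 0.45 and that of all genes was -0.02, with 6 positive and 3 negative.

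Wfdc2, which encodes a small secreted protein of the protease inhibitor type (also called HE4), came nearest to passing among the rest. Its mean over the 9 whole-stomach arrays, 6.11, was near the median of all genes, 5.71. It stood at 6.39 and 6.91 in the combined arrays, against 6.01, 5.95 and 5.96 in rapamycin arrays, and at 6.73 and 5.84 in tamoxifen arrays, against 5.52 and 5.67 in vehicle arrays. Every tamoxifen array was above every array of its comparison group, by most on tamoxifen 1 and by least on tamoxifen 2. Over all genes, groups did not overlap for 27.3% (tamoxifen against vehicle) and 39.1% (combination against rapamycin). The averaged change was 0.68 ± 0.19 (adjusted p = 0.0704). It passed with dim genes dropped (0.68, adjusted p = 0.0375), and was 0.49 (adjusted p = 0.211) with the squamous mean as a covariate. Without tamoxifen 2 and vehicle 2, which leaves 1 array in each of those groups, the averaged change was 0.94. With 1 array left out the averaged change ran from 0.46 to 0.90, highest without tamoxifen 2, and passed in 1 of 9 cases.

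Cd44, the hyaluronan receptor whose variant forms mark metaplastic glands, is also made by squamous keratinocytes and leukocytes. Its level was 8.71 and 8.75 in the combined arrays, 8.99 and 7.87 in tamoxifen arrays, 8.71, 7.66 and 6.37 in rapamycin arrays, and 6.93 and 6.90 in vehicle arrays. The arrays at 8.71 or above were all high in squamous genes, and the lowest array, rapamycin 3, was low in them. The log2 change was 1.52 ± 0.63 for tamoxifen against vehicle (adjusted p = 0.410) and 1.82 ± 0.63 for the combination against vehicle (adjusted p = 0.247). The combination against vehicle passed when only its own groups were fitted (adjusted p = 0.00382). The averaged change was 1.33 ± 0.42 (adjusted p = 0.119). With 1 array left out the averaged change passed in 1 of 9 cases, without rapamycin 1 (1.62, adjusted p = 0.03). With the squamous mean as a covariate the change was 0.65 for tamoxifen against vehicle and 0.30 for the combination against vehicle. For rapamycin against vehicle it was then -0.39 in place of 0.67. Tamoxifen 2, which had no squamous excess, stood 0.96 above the mean of the vehicle arrays, and it was the array with the highest mean of 9 leukocyte genes (6.39, against 5.92 and 6.02 in vehicle arrays). Whether the probe set reads the variant forms was not tested.

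**Figure D2:**
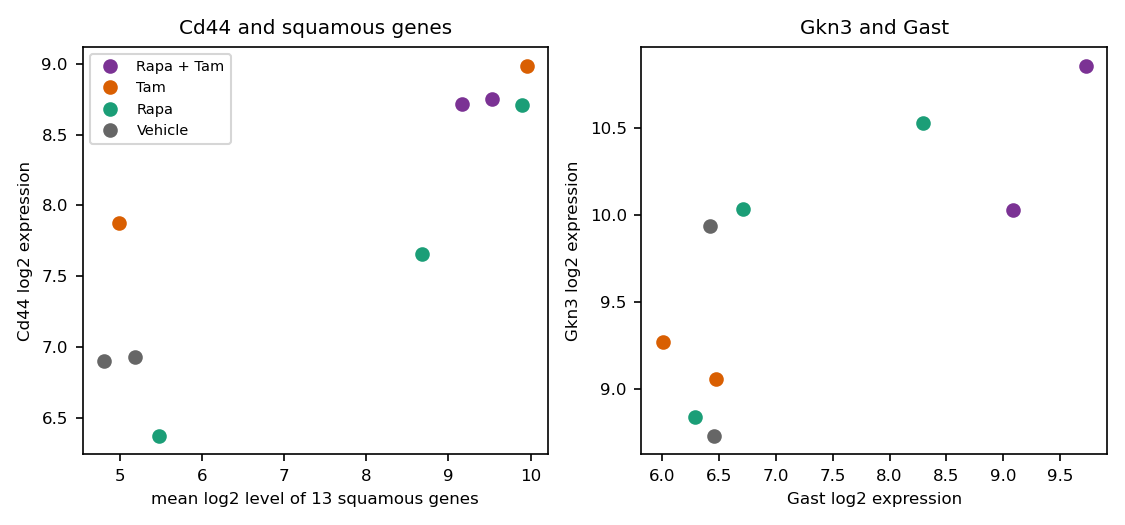
Cd44 log2 level against the mean log2 level of 13 squamous forestomach genes (left) and Gkn3 against Gast (right), with 1 point for each of the 9 whole-stomach arrays, coloured by group. Cd44 was at 8.71 or above on 4 of the 5 arrays high in squamous genes, and tamoxifen 2 (7.87) lay above the vehicle arrays (6.93 and 6.90) at a like squamous level.

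Sox9, a transcription factor of progenitor and gland-base cells, was lower with tamoxifen alone. It measured 9.71 and 9.44 in tamoxifen arrays, against 10.07 and 9.98 in vehicle arrays, and the tamoxifen arrays were the lowest of the 9 arrays. In the combination it measured 9.98 and 9.91, against 10.03, 10.13 and 10.04 in rapamycin arrays. The change for tamoxifen against vehicle was -0.45 ± 0.14 (adjusted p = 0.215), and for the combination against rapamycin -0.12 ± 0.13 (adjusted p = 0.790). Neither passed. Combined and rapamycin arrays did not overlap for 4 of the 9 genes (Cd44, Clu, Sox9 and Wfdc2), as for 39.1% of all genes.

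Cftr, a chloride channel of secretory and duct-like cells, was dim, near the median of all genes. It measured 6.75 and 5.46 in the combined arrays, 6.31 and 6.32 in tamoxifen arrays, 5.70, 4.03 and 3.85 in rapamycin arrays, and 5.67 and 5.85 in vehicle arrays. Rapamycin 2 and 3 were the lowest of the 9 arrays, and rapamycin 1 was at the vehicle level. Rapamycin against vehicle gave -1.24 ± 0.54 (adjusted p = 0.555), and the combination against rapamycin gave 1.58 ± 0.54 (adjusted p = 0.214). Neither passed. With 1 array left out the combination against rapamycin passed in 1 of 9 cases, without rapamycin 1 (2.16, adjusted p = 0.0345).

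Aqp5, a water channel of antral gland-base cells, measured 7.65 and 6.89 in the combined arrays, 7.26 and 7.60 in tamoxifen arrays, 7.04, 6.42 and 6.70 in rapamycin arrays, and 6.52 and 7.07 in vehicle arrays. Tamoxifen arrays lay above vehicle arrays, in a comparison where 27.3% of all genes did not overlap, and combined and rapamycin arrays overlapped. The change was 0.64 ± 0.30 for tamoxifen against vehicle (adjusted p = 0.517) and 0.55 ± 0.28 for the combination against rapamycin (adjusted p = 0.450).

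The question of what rapamycin does to these genes in injured stomach is addressed by the combination against tamoxifen. There the secretory genes and Sox9 stood higher in the combination: Gkn3 by 1.28 ± 0.56, Muc6 by 0.79 ± 0.34, Tff2 by 0.76 ± 0.24 and Sox9 by 0.37 ± 0.14. Combined and tamoxifen arrays did not overlap for Tff2, Gkn3 and Sox9, as for 36.4% of all genes, and they overlapped for Muc6, where combined 2 (10.93) was just under tamoxifen 2 (10.94). None passed, each at an adjusted p of 0.814, and limma called 0 of all genes. An unadjusted p under 0.05 was found for 1257 of all 22180 genes, near the share of 0.05 awaited with no effect. The 95% interval for Tff2 was 0.21 to 1.31. Gast stood at 9.73 and 9.08 in the combination, against 6.48 and 6.00 with tamoxifen, and the squamous mean at 9.16 and 9.53 in the combination, against 9.96 and 4.98 with tamoxifen. The part of antral tissue in these differences was not tested. Without tamoxifen 2 and vehicle 2 these 4 differences were 1.39, 1.15, 1.14 and 0.23. Clu (-0.01 ± 0.14), Aqp5 (-0.16 ± 0.30), Cftr (-0.22 ± 0.59), Cd44 (0.30 ± 0.63) and Wfdc2 (0.36 ± 0.27) had 95% intervals that held 0.

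Without tamoxifen, rapamycin changed none of the 9 genes past the threshold in limma, where 0.0496% of all genes passed (0.00902% higher and 0.0406% lower). Cftr and Muc6 had an unadjusted limma p under 0.05, as did 1977 of all 22180 genes. Muc6 stood at -0.71 ± 0.31 (adjusted p = 0.558), with rapamycin arrays between 11.59 and 11.95 and vehicle arrays at 12.18 and 12.82. Wfdc2 stood at 0.38 ± 0.25 with groups that did not overlap, as for 27.0% of all genes. Cftr and the other 6 genes had rapamycin and vehicle arrays that overlapped, and those 6 changed by -0.11 (Clu) to 0.67 (Cd44).

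For the combination against vehicle, also 0 of 9 passed in limma, with 1.15% of all genes called (0.41% higher and 0.735% lower). Of the 9 genes 4 had an unadjusted limma p under 0.05, as did 3044 of all 22180 genes. The groups did not overlap for 6 of the 9 genes, as for 44.1% of all genes. Wfdc2 had the lowest p of the 9, at 1.05 ± 0.27 (adjusted p = 0.138), and Muc6 stood at -1.12 ± 0.34 (adjusted p = 0.195). Comparisons against vehicle share the same 2 vehicle arrays, so they are not separate evidence.

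**Figure D3:**
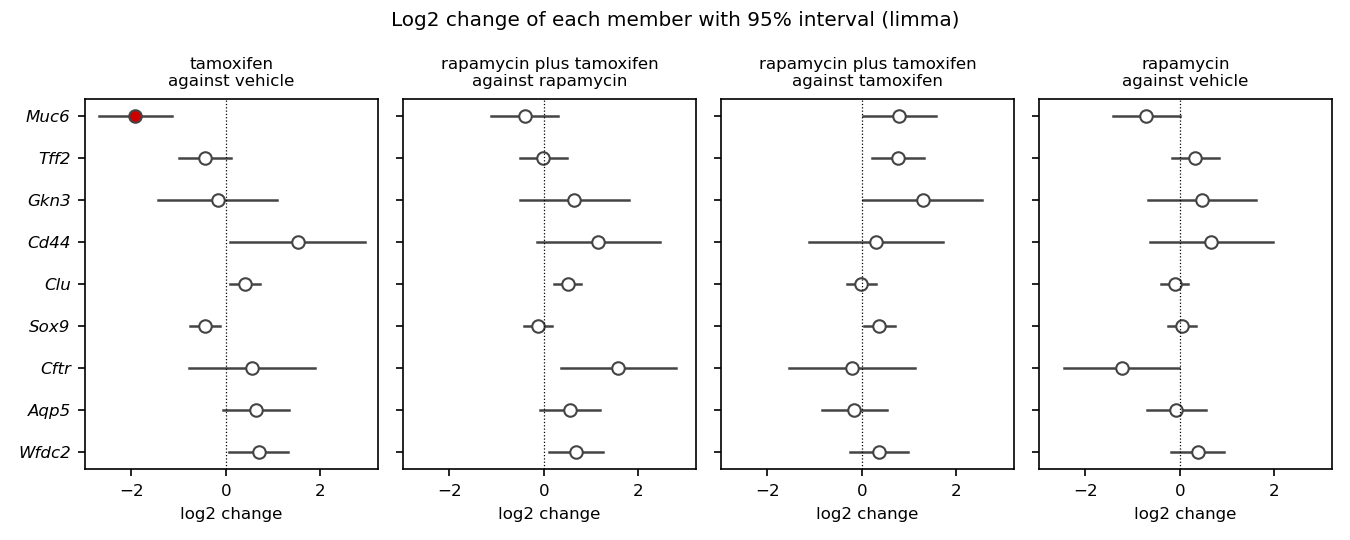
Log2 change of each of the 9 genes with its 95% interval from limma, for tamoxifen against vehicle, rapamycin plus tamoxifen against rapamycin, rapamycin plus tamoxifen against tamoxifen, and rapamycin against vehicle. The filled point passed an adjusted p of 0.05 over all genes, which was Muc6 for tamoxifen against vehicle (-1.92) alone, and open points did not.

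In the parietal-cell array 8 of the 9 genes were lower than in the remaining cells, 6 of them by at least 1 log2 unit, and 0 were higher by that much. Over all genes 6.46% were lower by at least 1 log2 unit and 6.32% higher, and the median difference was -1.79 for the 9 genes and 0.03 for all. With 1 array per fraction there is no replicate and no test. Both Cftr values and the parietal-cell value of Cd44 lay below their array's median and are not shown to be above background. These arrays had medians of 3.67 (parietal cells) and 3.68 (remaining cells), apart from the whole-stomach medians of 4.95 to 5.09, and are compared only with each other.

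The mucous products had large differences. Gkn3 measured 5.04 in parietal cells and 9.31 in remaining cells, a difference of -4.27. Muc6 measured 4.62 in parietal cells and 8.70 in remaining cells, a difference of -4.08. Tff2 measured 9.72 in parietal cells and 12.65 in remaining cells, a difference of -2.93. Tff2 was still well above the array median in the parietal-cell array.

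Among the other markers, Cd44 had 2.67 in parietal cells and 6.32 in remaining cells (-3.65), Wfdc2 had 4.67 in parietal cells and 6.45 in remaining cells (-1.79), and Cftr was dim in both, at 2.33 in parietal cells and 3.48 in remaining cells. Clu had 9.77 in parietal cells and 10.46 in remaining cells (-0.69), and Aqp5 had 4.76 in parietal cells and 5.29 in remaining cells (-0.52). Sox9 went the other way, with 8.81 in parietal cells and 8.04 in remaining cells (0.77). Markers used to judge the separation gave a mean of 9.21 in the parietal-cell array and 5.75 in the remaining-cell array for 13 parietal genes. For 10 chief cell genes the means were 5.44 in parietal cells and 5.68 in remaining cells, with Rnase1 of that list 6.30 higher in parietal cells. For 8 pit cell genes they were 10.68 in parietal cells and 11.97 in remaining cells. Of 12 genes listed for the mucous secretory pathway, 11 were lower in parietal cells by at least 1 log2 unit and 1 was higher. Over all genes 6.46% were lower by that much.

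**Figure D4:**
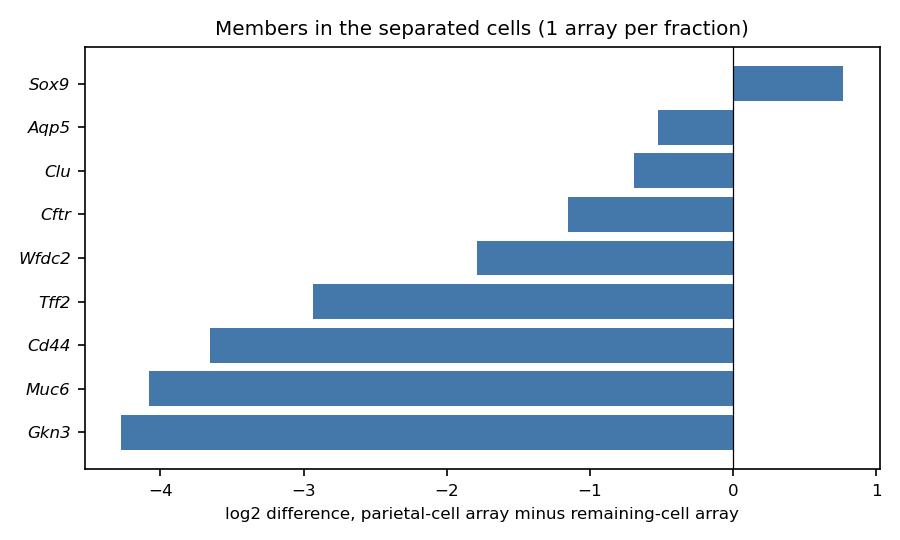
Log2 difference between the parietal-cell array and the remaining-cell array for each of the 9 genes, with 1 array per fraction and no error. Bars run from 0.77 for Sox9 to -4.27 for Gkn3, and 8 of 9 point to the remaining cells.

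Genes that work with these markers were read from lists chosen for this tissue. Of 12 genes of the mucous secretory pathway, 1 fell and 0 rose with tamoxifen against vehicle, where 0.784% of all genes fell. In the averaged comparison 2 fell and 0 rose, where 2.61% of all genes fell. Creb3l4, a membrane-bound transcription factor of secretory cells, fell by 0.96 ± 0.19 against vehicle (adjusted p = 0.0481). In the averaged comparison A4gnt, which adds the terminal sugar of Muc6 glycans, fell by 0.95 ± 0.23 (adjusted p = 0.0486), and Creb3l1 fell by 0.75 ± 0.13 (adjusted p = 0.00896). A4gnt measured 9.61 and 8.86 in the combination, 8.78 and 9.14 with tamoxifen, 9.90, 9.57 and 9.68 with rapamycin, and 9.87 and 10.87 with vehicle. Its lowest 3 arrays all had tamoxifen.

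Of 16 other genes linked to gastric metaplasia, 1 rose with tamoxifen against vehicle, where 0.933% of all genes rose, and 2 rose in the combination against rapamycin, where 1.13% did. In the averaged comparison 5 rose and 1 fell, where 3.24% of all genes rose and 2.61% fell. The rises in the averaged comparison were Slc7a11, the cystine transporter, by 1.96 ± 0.31 (adjusted p = 0.00714), the macrophage protease gene Mmp12 by 1.68 ± 0.34, the mucosal scavenger protein gene Dmbt1 by 1.53 ± 0.26, the transcription factor gene Etv5 by 0.82 ± 0.10 and the injury-response gene Ifrd1 by 0.60 ± 0.12. Nupr1, a stress-response gene, fell by 1.08 ± 0.18 (adjusted p = 0.00819). Slc7a11 measured 7.75 and 7.26 in the combination, 7.23 and 7.92 with tamoxifen, 5.91, 4.61 and 4.97 with rapamycin, and 5.48 and 6.49 with vehicle. Its arrays with tamoxifen lay above those without, a separation not counted over all genes. Of 10 genes listed for chief cells, from which metaplastic cells can arise, 5 fell and 1 rose in that comparison. One of those that fell was Rnase1 (-3.56), which in the separated cells was 6.30 higher in parietal cells than in remaining cells. All 15 cell cycle genes rose in it.

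By Pearson correlation over the 9 whole-stomach arrays, among 11082 genes of above-median level, the genes most like each marker were Myo16 (0.96) and Crebrf (0.96) for Muc6, Bace2 (0.95) and Fbxo32 (0.95) for Tff2, and Mob2 (0.90) and Cldn23 (0.87) for Gkn3. For Cd44 they were Trex2 (0.98) and Gja1 (0.97), for Clu Ncapg2 (0.98) and Ttc27 (0.98), and for Sox9 Elapor1 (0.97) and Macrod1 (0.97). For Cftr they were Pold4 (0.95) and Syt12 (0.92), for Aqp5 Chfr (0.95) and Eif4b (0.94), and for Wfdc2 Eef1b2 (0.98) and Mrpl1 (0.94). These are descriptions, picked as the highest of many, over arrays that share treatment groups and tissue makeup.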

How the data were processed

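RNA of 9 whole-stomach samples and 2 cell fractions was measured on Affymetrix arrays. Per the submitters' processing notes the authors used RMA and Partek, and the deposited values are log2 signals; no version or setting is stated. Of 41345 probe sets, 23521 named 1 gene symbol in the platform table, 1814 named several and 16010 were not listed with a gene. Each of 22180 genes was read by its brightest probe set on average in whole stomach; the 9 genes had 1 each. No filter on dim probe sets was used, and signal over background is not given. Dim levels are therefore not shown to be above background. The number of arrays limits the precision.

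The linear model (limma 3.58.1, R 4.3.3) had 1 mean per group and a shared spread (5 residual degrees of freedom, prior 3.86) and gave 7 contrasts, with Benjamini-Hochberg adjustment over all genes within each contrast. A gene was called at an adjusted p under 0.05. Errors after ± are limma standard errors of a log2 change. All 9 genes were tested in each comparison, but the text does not print the change of every gene in every comparison. Of other lists up to 6 called genes are named, and for each marker its 2 most correlated genes. The 9 genes and the lists were chosen with earlier results of these data known.

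Replicate numbers are shared between groups, but the labels do not tie them to animals or days, so they were used as a block only as an alternative. P-values measure the spread between these arrays. Alternatives were quantile normalization, centring on medians, dropping dim genes, averaging probe sets per gene, limma with trend and robust settings, only the groups compared, a squamous covariate, the replicate block and leaving out each array. Fits without tamoxifen 2 and vehicle 2 together, and on arrays low or high in squamous signal, were added after seeing the data. Figures were drawn with matplotlib 3.10.9.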

Additional observations from a re-analysis of the deposited data

How the results depend on the processing

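Of the 9 genes, 1 (Muc6) was called for tamoxifen against vehicle, and 0 with the squamous covariate, with the replicate block (Muc6 adjusted p = 0.083), with only the groups compared (Muc6 adjusted p = 0.289) and without tamoxifen 2 and vehicle 2 together. For tamoxifen averaged over rapamycin 2 were called, and 1 under quantile normalization. It was 0 with the squamous covariate and 0 with the replicate block (adjusted p = 0.0686 for Muc6 and 0.0623 for Clu). With dim genes dropped it was 3 (Muc6, Clu and Wfdc2). The combination against rapamycin gave 0, and 1 (Clu) with dim genes dropped or with trend and robust settings. The combination against vehicle gave 0, and 1 (Cd44) with only the groups compared. Rapamycin against vehicle gave 0, and 1 (Cftr) on the 4 arrays low in squamous signal, a fit with 1 residual degree of freedom. With 1 array left out, the count was 0 to 1 in the comparisons of tamoxifen or the combination with vehicle and of the combination with rapamycin, and 0 to 3 in the averaged one. The cause of these moves was not tested. The block changed no other call among the 9 genes, and calls of the other lists were not recomputed. Same-numbered arrays deviated together for tamoxifen and vehicle (r = 0.56) but not for the combination and tamoxifen (r = -0.11). In groups of 2 arrays the deviations mirror each other, so each r is a single value for both numbers. The identical values of tamoxifen 2 and vehicle 2 enter the r of 0.56, and their part in it was not tested. Tamoxifen 1 deviated with rapamycin 1 (r = 0.41), but tamoxifen 2 did not with rapamycin 2 (r = -0.087). The labels do not tie the numbers to animals or days, so the block stayed an alternative. Whether tamoxifen and vehicle arrays were paired was not tested.

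Over all genes, tamoxifen against vehicle gave 381 calls, 711 with dim genes dropped, 178 with the squamous covariate, 170 with the block, 0 with only its groups, 105 without tamoxifen 2 and vehicle 2, and 95 to 213 with 1 array left out. The combination against rapamycin gave 543, 865 with dim genes dropped, 260 with the block, 1102 with only its groups and 39 to 643 with 1 array left out. The combination against vehicle gave 254, 436 with dim genes dropped, 149 with the block, 10 with the covariate and 17 to 376 with 1 array left out. Rapamycin against vehicle gave 11, 4 with the covariate, 32 on the arrays low in squamous signal, 1 without tamoxifen 2 and vehicle 2, and 3 to 20 with 1 array left out. The averaged comparison gave 1298, and 613 to 1452 with 1 array left out.

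Changes of sign concerned log2 changes that had not passed. The squamous covariate gave Cd44 -0.39, Sox9 -0.053 and Aqp5 0.014 for rapamycin against vehicle, Cftr -0.28 for the combination against vehicle, Tff2 0.11 for the combination against rapamycin, Cd44 -0.35 for the combination against tamoxifen, and Cd44 0.038 and Wfdc2 0.10 for the interaction. Quantile normalization gave Tff2 0.13 for the combination against rapamycin and Clu 0.025 for the combination against tamoxifen. The replicate block, and also the 5 arrays high in squamous signal, gave Tff2 0.020 for the combination against rapamycin. The 4 arrays low in squamous signal gave Cd44 -0.54 for rapamycin against vehicle. Without tamoxifen 2 and vehicle 2, Gkn3 was 0.32 for tamoxifen against vehicle, and Sox9 was -0.0025 and Aqp5 0.20 for rapamycin against vehicle. There, and on the 5 arrays high in squamous signal, Cd44 was -0.26, Aqp5 0.0099 and Wfdc2 -0.079 for the combination against tamoxifen.

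With 1 array left out, these ranges crossed 0. Gkn3 ran from -0.78 to 0.43 for tamoxifen against vehicle, from -0.14 to 1.07 for rapamycin against vehicle and from -0.066 to 0.54 in the averaged comparison. For rapamycin against vehicle Sox9 ran from -0.0025 to 0.091 and Aqp5 from -0.35 to 0.20, and Cftr ran from -0.30 to 0.99 for the combination against vehicle. For the combination against rapamycin Muc6 ran from -0.85 to 0.029 and Tff2 from -0.096 to 0.037. For the combination against tamoxifen the ranges were -0.26 to 0.86 (Cd44), -0.068 to 0.042 (Clu), -0.86 to 0.43 (Cftr), -0.54 to 0.22 (Aqp5) and -0.079 to 0.80 (Wfdc2). For the interaction they were -0.97 to 0.20 (Cd44), -0.47 to 0.29 (Aqp5) and -0.46 to 0.43 (Wfdc2).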
